A study of Mus musculus with 8 samples.

Results

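Wild-type (WT) haematopoietic stem cells (HSC) from secondary recipient mice were compared with WT HSC from primary recipient mice. The comparison used 4 of the 8 arrays of the series, 2 per group, assigned by the sample titles, and all 4 lay on one slide. In each group the cells were donor-derived HSC, labelled wild type, sorted by flow cytometry out of the recipients. The other 4 arrays held HSC with a knockout (KO) of E47, a product of the gene Tcf3, from primary and secondary recipients, 2 arrays each on 2 further slides, and they are used below for side-by-side values. The labels do not say whether the 2 arrays of a group came from separate mice or from 1 pool of cells, and the sources used here give no age of the animals, sort markers or number of cells. A p-value below therefore rests on how far 2 arrays of a group differ, and that difference may be only technical. All samples went through a PCR that amplifies the whole cDNA.

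HSC sit in the bone marrow, divide rarely and can rebuild the blood of an irradiated recipient. In serial transplantation, marrow of a primary recipient is moved into a secondary one, so that the donor HSC must engraft and expand anew. The procedure is the standard test of self-renewal, and HSC that have passed through it are known to differ in cycling, stress and lineage output from HSC that have not.

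Levels are log2 of a probe's signal over the 75th percentile of its array, so that 0 is the level of the 75th percentile. A change is the mean level on the secondary arrays minus that on the primary arrays, given relative to the median change of all genes tested, which was -0.99. P-values come from limma and test the change before that shift was taken out. "Above background" means that the scanner software marked the spot as well above its background.

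One primary array stood apart. WT primary array 2 had 41.9% of its spots above background and a 75th percentile of 36.6 intensity units, against 74% to 80.2% and 320.7 to 846.9 units on the other WT arrays. The lowest measurable level was -2.18 on that array and between -6.45 and -5.20 on the others, so low genes there have only a bound. Its 95th percentile of levels was 8, against 3.15 to 3.49 on the other WT arrays. Over the 9827 genes above background on all 8 arrays, the 2 WT primary arrays correlated at 0.537 and the 2 WT secondary arrays at 0.837. The genes are not independent, and these correlations are descriptions. The plot of list medians gives each median with and without that array.

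The secondary arrays were closer to HSC of the other genotype from secondary recipients than to WT HSC from primary recipients. Their correlation with KO secondary array 1, on another slide, was 0.852 and 0.855. With WT primary array 1, on their own slide, it was 0.651 and 0.667, and with WT primary array 2 it was 0.635 and 0.631. KO secondary array 2 lay between these values, at 0.733 and 0.740. WT primary array 1 was likewise closer to KO secondary arrays 1 and 2, at 0.724 and 0.718, than to the WT secondary arrays. WT primary array 2 was closer than that to KO secondary array 1, at 0.653, but not to KO secondary array 2, at 0.59. Being closer to KO secondary array 1 than to the other WT group was thus not particular to the secondary arrays.

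HSC genes were present in both groups. Kit and Ly6a, which encode the receptor and the antigen behind the usual HSC sort gates, were above background on all 4 WT arrays, as was the common leukocyte gene Ptprc. Of 25 genes for HSC surface markers, 18 were above background on both primary arrays and 24 on both secondary arrays. Of 20 B lineage genes these counts were 14 and 19, and of 22 T and NK cell genes 15 and 21. Genes entered the test only if above background on both arrays of some group, so these counts are not particular to HSC. Kit was at -0.34 and 8.32 on the primary and 0.97 and -0.5 on the secondary arrays, so its spread lay between the 2 primary arrays.

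No single gene passed an adjusted p of 0.05 among 22943 genes and unnamed probes tested (limma, Benjamini-Hochberg), and the lowest adjusted p was 0.324. At an unadjusted p under 0.05, 1250 genes (5.45%) were higher and 1501 (6.54%) lower in secondary recipients. With each array centred on its median gene instead, 1363 (5.94%) were higher and 1125 (4.90%) lower, so the balance of the directions depends on the scaling. The gene lists below depend on it too. The chaperone, DNA replication, TCA cycle, megakaryocyte and Hox lists each had 1 lower gene at that p before centring and 0 after it. The interferon list went from 7 to 8 higher genes. On data simulated for this comparison, 38 of 50 genes changed by 12 on the log2 scale were recovered, 20 of 50 changed by 8, and 0 of 50 each changed by 4 and by 2. Smaller changes were therefore not detectable with these arrays. Both secondary arrays lay above both primary arrays for 3506 genes (15.3%) and below both for 9190 (40.1%). Unless a value is said to have passed, every gene below is a description at an adjusted p of 0.324 or more.

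Detection differed in one direction. There were 1224 genes (5.33%) above background on both secondary arrays and on neither primary array, and 36 (0.157%) the other way round. The first count was 7735 without WT primary array 1, when the dim array alone stood for the primary group, and the second was 263 without WT primary array 2. The part of array brightness in these counts was not tested.

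Of the single genes named here, the widest gaps between the groups were in genes of maturing neutrophils. S100a8 and S100a9 encode the calgranulins, the most abundant proteins of the neutrophil cytoplasm, and Lcn2, Camp and Ngp encode proteins of the secondary granules. Retnlg encodes a resistin-like protein of granulocytes. S100a8, S100a9, Lcn2 and Retnlg had the 4 most negative changes of the genes named here, in secondary against primary recipients. In bulk RNA of this kind, fewer cells of a type and less RNA per cell cannot be told apart.

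S100a8 levels were 5.07 and 10.92 on the primary arrays and -8.48 and -8.03 on the secondary arrays. It was not above background on either secondary array, so its fold is a bound: at least 18900-fold lower on the scaled signal, with a change of -15.25 (SE 2.75, adjusted p 0.324). Without WT primary array 2 the change was -12.59. The groups lay far apart, with the dim primary array the higher of its pair.

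Retnlg was at 5.75 and 10.41 on the primary and -6.46 and -8.02 on the secondary arrays, at least 20000-fold lower. Lcn2 was at 2.95 and 9.79 against -8.54 and -8.08, at least 6110-fold lower. Both were below background on the 2 secondary arrays and above it on the 2 primary arrays. S100a9 was measured on all 4 arrays, at 5.72 and 11.03 against -5.63 and -5.66, a change of -13.03 (SE 2.89). Without WT primary array 2 the change went from -14.33 to -12.26 for Retnlg, from -13.69 to -10.53 for Lcn2 and to -10.64 for S100a9.

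Camp, the gene of the antimicrobial peptide cathelicidin, was at 4.89 and 10.19 on the primary and -2.12 and -5.56 on the secondary arrays, a change of -10.39 (SE 3.01). Ngp, for a neutrophil granule protein, was at 3.54 and 10.78 against -3.82 and -3.99 (change -10.07, SE 3.03). Mmp8, the neutrophil collagenase gene, was at 4.53 and 6.76 against -2.12 and -1.32 (change -6.37, SE 1.82). In each of these genes both secondary arrays lay below both primary arrays. Without WT primary array 2 the changes were -8 for Camp, -6.72 for Ngp and -5.52 for Mmp8.

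The 60-base probes that carry the S100a8, Lcn2 and Camp values are shown because single probes carry these values. They are read from the scanner files, 5′ to 3′, with positions in the build the files name (mm8). The S100a8 probe lies at chr3:90755783-90755842 on the plus strand, and the Camp probe at chr9:109704884-109704943 on the minus strand. The Lcn2 probe maps to chr2:32207526-32207770 on the minus strand, a span of 245 bases for 60 bases of probe, so it bridges a splice junction. Each has at least 1 forward reading frame without a stop codon.
S100a8: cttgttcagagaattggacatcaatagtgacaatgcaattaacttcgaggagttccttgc
Lcn2: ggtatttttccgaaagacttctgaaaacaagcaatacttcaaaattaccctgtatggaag
Camp: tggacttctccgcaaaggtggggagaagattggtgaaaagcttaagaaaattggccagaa

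**Figure D1:**
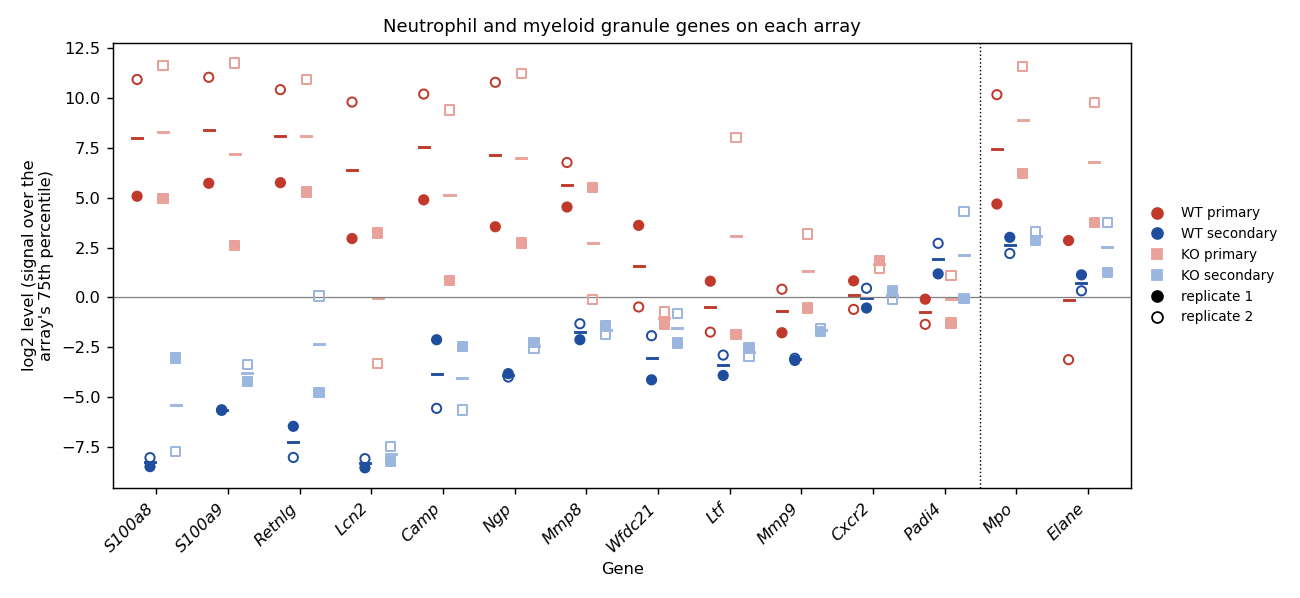
The plot shows the log2 level (signal over the array's 75th percentile) of 12 neutrophil genes and, right of the dotted line, of Mpo and Elane on each of the 8 arrays; circles are WT, squares KO, filled symbols replicate 1, open symbols replicate 2, and short bars the group means. S100a8, S100a9, Retnlg, Lcn2, Camp and Ngp sit at 2.95 or above on both WT primary arrays and at -2.12 or below on both WT secondary arrays, while Cxcr2 overlaps and Padi4 lies above.

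Among the 26 late neutrophil genes tested, the median change was -1.44, with 20 below the median gene. Unadjusted p was under 0.05 for 9 of them, all lower, beside 6.54% of all genes, and 18 had both secondary arrays below both primary arrays, beside 40.1%. The list was chosen with earlier results of these data known, so its counts are a description. The other members named by p were Wfdc21 at -3.60 and Fpr2, a formyl peptide receptor gene, at -2.43. Not every member was lower. Cxcr2, the chemokine receptor of neutrophils, was at 0.83 and -0.60 on the primary and -0.53 and 0.46 on the secondary arrays. Padi4, for a histone citrullinating enzyme, was higher on both secondary arrays than on both primary arrays (change 3.66, SE 1.65). Of the 26 genes, 21 were above background on both primary and 22 on both secondary arrays, and S100a8, Lcn2 and Retnlg were above it on no secondary array. Summed over the 26, the log2 level was 8.13 and 13.26 on the primary and 4.52 and 4.76 on the secondary arrays. Lyz2, the lysozyme gene, overlapped between the groups, at 0.47 and 8.02 against 2.16 and 1.36.

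C/EBP factors are transcription factors known to drive neutrophil granule genes. The letters TTGCNNAA, a core of their motif, were searched on both strands of the 250 bases before the start of each gene, taken from RefSeq (GRCm38.p6). Of the 24 neutrophil genes with a sequence, 7 held a match (29.2%), against 3141 of 32817 gene starts (9.57%). The windows of Lcn2, with 1 match, and Ngp, with 2, are shown because both are among the neutrophil genes with wide gaps. Capitals mark the matches. S100a8 had 0 matches in its window and S100a9 1. A match describes letters and not binding. The Lcn2 window is chr2:32387740-32387989 on the minus strand and the Ngp window chr9:110419558-110419807 on the plus strand.
Lcn2: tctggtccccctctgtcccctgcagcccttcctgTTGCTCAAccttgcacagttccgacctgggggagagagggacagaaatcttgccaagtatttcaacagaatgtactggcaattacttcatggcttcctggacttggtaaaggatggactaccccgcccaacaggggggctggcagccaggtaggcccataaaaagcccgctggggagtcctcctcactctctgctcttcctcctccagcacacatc
Ngp: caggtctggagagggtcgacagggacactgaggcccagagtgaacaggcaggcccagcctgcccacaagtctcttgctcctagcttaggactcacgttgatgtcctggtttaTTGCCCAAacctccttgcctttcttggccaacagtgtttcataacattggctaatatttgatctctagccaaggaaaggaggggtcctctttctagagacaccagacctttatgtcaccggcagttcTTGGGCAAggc

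Genes of earlier myeloid cells differed less. Mpo, the myeloperoxidase gene of promyelocytes, was at 4.68 and 10.16 on the primary and 3.01 and 2.20 on the secondary arrays, a change of -3.82 (SE 2.20) that was -1.34 without WT primary array 2. Elane, for neutrophil elastase, was at 2.85 and -3.12 against 1.13 and 0.33, and the groups overlapped. Among 18 genes of myeloid progenitor granules and their regulators the median change was -0.21. At an unadjusted p under 0.05, 2 were lower and 0 higher, beside 6.54% and 5.45% of all genes. The 2 lower genes were Ctsg, for cathepsin G, at -5.07 (SE 2.39, and -1.24 without WT primary array 2) and Cebpb, a C/EBP gene, at -1.34 (SE 0.97). Another Cebpb probe gave 1.6. Cebpa, the C/EBP gene needed for granulocyte progenitors, was at 0.24 and 1.02 against -1.06 and -1.39.

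Among 20 monocyte, macrophage and dendritic cell markers the median change was 0.23, and -0.07 without WT primary array 2. The MHC class II gene H2-Aa was higher in secondary recipients, at -3.29 and -2.34 on the primary and 3.91 and 3.10 on the secondary arrays, a change of 7.31 (SE 1.04). Another H2-Aa probe gave 2.40. H2-Ab1, its partner chain, was at 0.73 and -0.05 against 4.24 and 4.37 (change 4.96, SE 2.13), and H2-Eb1 at -0.46 and 0.10 against 0.19 and 1.06. In all 3 class II genes both secondary arrays lay above both primary arrays. The invariant chain gene Cd74 overlapped, at 4.18 and 0.92 against 4.03 and 4.27. The monocyte genes Ccr2, at -2.01 (SE 1.24), and Fcgr1, at -1.20 (SE 0.92), were lower at an unadjusted p under 0.05. With each array centred on its median gene, 1 of the 20 was lower at that p, beside 4.9% of all genes.

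Several transcription factors that define HSC were higher in secondary recipients. Meis1, a Hox cofactor needed to keep HSC, was at -3.53 and -1.52 on the primary and 2.47 and 4.24 on the secondary arrays, a change of 6.88 (SE 1.21, adjusted p 0.324). Hlf, a PAR bZIP factor largely restricted to HSC, was at -2.92 and -3.43 against 1.35 and 2.43 (change 6.06, SE 1.06). Cbfa2t3, a corepressor gene of the ETO family, was at -1.43 and -1.31 against 1.78 and 2.07 (change 4.29, SE 0.97). None of the 3 overlapped, and without WT primary array 2 the changes were 7.62, 5.55 and 4.09. A further Meis1 probe gave only 0.56, and a further Cbfa2t3 probe gave 6.60.

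Of the 25 HSC transcription factor genes, 17 lay above the median gene, with a median of 0.76, which was 2.01 without WT primary array 2. At an unadjusted p under 0.05, 3 were higher and 0 lower, beside 5.45% and 6.54% of all genes. Mecom, which encodes Evi1, was at 0.07 and -3.15 on the primary and 1.25 and 1.44 on the secondary arrays (change 3.88, SE 1.57). Without WT primary array 2 the Mecom change was 2.01, and 2 other Mecom probes gave -0.06 and 1.35. Tal1, for a partner of E proteins, was at 3.28 and 1.53 against 4.32 and 3.92. Several members showed a level on WT primary array 2 far from all others: Gata2 was at 9.17 there against -1 on WT primary array 1 and 3.96 and 3.04 on the secondary arrays. Erg was at 9.36 there against -1.44, 2.58 and 3.97. For Erg and Gata2 the secondary arrays lay above one primary array and below the other. The summed level of the late neutrophil genes went from 8.13 and 13.26 on the primary to 4.52 and 4.76 on the secondary arrays. On the same measure the HSC transcription factor genes overlapped, at 5.72 and 11.40 against 7.07 and 7.18. In both lists the highest sum was on the dim WT primary array 2. The part of the neutrophil genes in the HSC gene values was not tested.

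Surface and niche genes of HSC were split. Tie1, an endothelial and HSC receptor tyrosine kinase, was at -2.25 and -4.40 on the primary and 2.69 and 2.44 on the secondary arrays, a change of 6.89 (SE 1.29). Angpt1, the gene of the ligand for the sister receptor Tie2, was at -1.37 and -1.82 against 1.91 and 3.50 (change 5.29, SE 1.17). Fgd5, a guanine nucleotide exchange factor used to mark HSC, was at -3.59 and -3.89 against 1.85 and 0.30 (change 5.81, SE 1.42). All 3 had both secondary arrays above both primary arrays. Tek, the Tie2 gene, did not, at -6.28 and 4.47 on the primary and -6.59 and -6.49 on the secondary arrays. It was above background on neither secondary array. Its change was -4.64 (SE 2.95), and 0.47 without WT primary array 2. The Tie1 probe, at chr4:117969459-117969518 of mm8 on the minus strand, is printed because Tie1 had the lowest p of the surface genes.
Tie1: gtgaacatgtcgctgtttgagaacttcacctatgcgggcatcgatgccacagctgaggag

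Slamf1, which encodes CD150, was at -1.59 and -2.79 on the primary and 1.52 and 2.53 on the secondary arrays (change 5.21, SE 1.82). Procr, for the endothelial protein C receptor EPCR, was at 1.16 and -4.33 against 4.17 and 3.90 (change 6.61, SE 2.63). Neither group pair overlapped, but Procr was below background on WT primary array 2, and without it the change was 3.60. Itga4, an integrin chain of marrow homing, was lower, at 4.29 and 9.44 against 1.57 and 1.76 (change -4.21, SE 2; -1.89 without WT primary array 2). The 5 other Itga4 probes gave 0.71 to 5.64, so its direction depends on the probe. Cxcr4, the receptor for the niche chemokine Cxcl12, was at -0.89 and 0.75 against -2.98 on both secondary arrays (change -1.92, SE 1.13). In all, 15 of 25 genes of this list lay above the median gene, with a median of 0.92, which was 0.18 without WT primary array 1. At an unadjusted p under 0.05, 3 were higher and 2 lower, beside 5.45% and 6.54% of all genes.

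**Figure D2:**
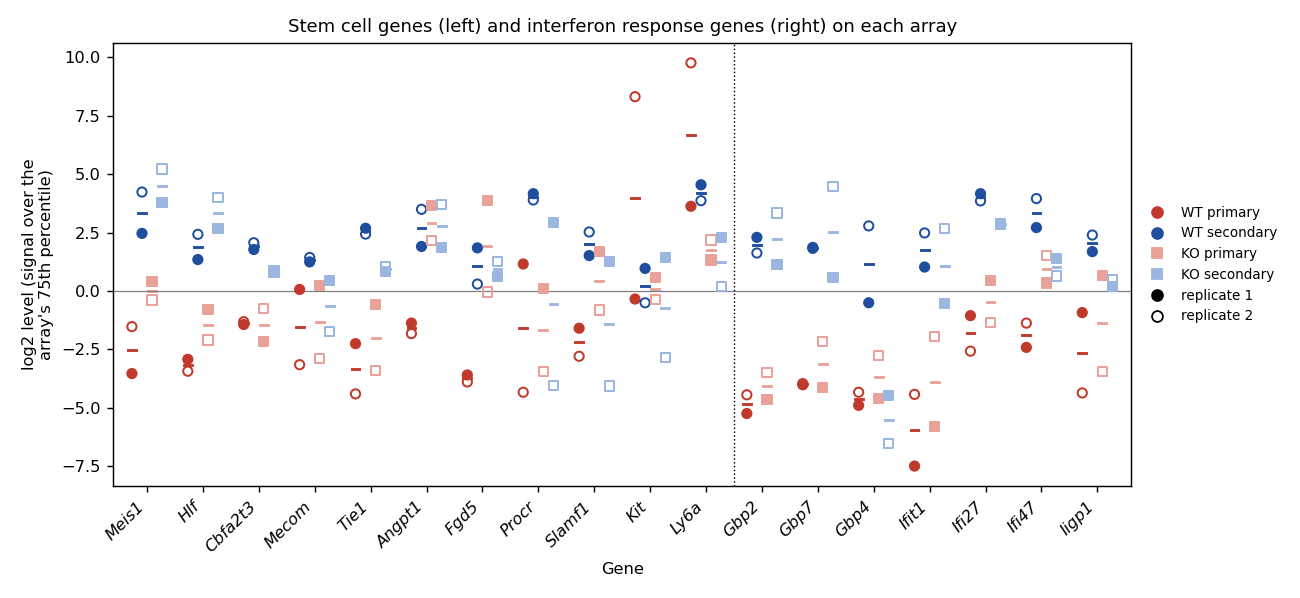
The plot shows the log2 level (signal over the array's 75th percentile) of 11 stem cell genes and, right of the dotted line, of 7 interferon response genes on each of the 8 arrays; circles are WT, squares KO, filled symbols replicate 1, open symbols replicate 2, and short bars the group means. Meis1, Hlf, Cbfa2t3, Tie1, Angpt1 and Fgd5 lie below -1 on both WT primary arrays and above 0 on both WT secondary arrays, whereas Kit and Ly6a are highest on WT primary array 2, at 8.32 and 9.77.

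Markers of multipotent progenitors, the first progeny of HSC, had no settled direction: their median change over 12 genes was 0.41, but -0.37 without WT primary array 2 and -0.05 after quantile normalization. Flt3, a cytokine receptor gained as HSC become multipotent progenitors, was lower at -1.30 and 1.49 on the primary against -3.11 and -2.73 on the secondary arrays (change -2.02, SE 1.19; -0.89 without WT primary array 2). Cd48, absent from the most primitive HSC, was at -1.61 and -4.17 against -3.09 and -2.96. Cd34 was at 0.36 and -4.17 against 0.37 and -1.59, and in both genes the groups overlapped. Cd27 was at -1.52 and 1.41 on the primary and 3.68 and 3.85 on the secondary arrays.

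Genes reported to rise as HSC age were mixed. Of 31, 20 lay above the median gene, with a median of 0.71. At an unadjusted p under 0.05, 3 were higher and 1 lower, beside 5.45% and 6.54% of all genes. Selp, the gene of P-selectin and a recurrent marker of aged HSC, was at -0.83 and -1.72 on the primary and 1.31 and 3.01 on the secondary arrays (change 4.42, SE 1.26). Dnmt3b, a de novo DNA methyltransferase gene, was below background on both primary arrays and at 0.71 and 0 on the secondary arrays, at least 16.5-fold higher. Sbspon was at 1.44 and -1.85 on the secondary arrays, at least 11.2-fold higher, and Ptprk was lower at -2.43 (SE 1.24). Vwf, for von Willebrand factor of platelet-biased HSC, was at 1.46 and 0.47 against 2.98 and 1.63.

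Most interferon response genes lay above the median gene. Interferons are cytokines of antiviral defence that also push resting HSC into cycle, and the guanylate-binding proteins (Gbp) and immunity-related GTPases are among the genes they switch on. Of 35 genes, 27 lay above the median gene, with a median of 1.16 (1.77 without WT primary array 2). At an unadjusted p under 0.05, 7 were higher and 0 lower, beside 5.45% and 6.54% of all genes. The 7 were Gbp2, Gbp4, Gbp7, Ifi27, Ifi47, Ifit1 and Iigp1.

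Gbp2 was below background on both primary arrays, at -5.24 and -4.44, and at 2.30 and 1.63 on the secondary arrays, at least 50.4-fold higher (change 7.79, SE 1.14). Ifit1, an antiviral RNA-binding protein gene, was below background on both primary arrays and at 1.03 and 2.49 on the secondary arrays, at least 43.7-fold higher. Ifi27 was at -1.05 and -2.57 against 4.17 and 3.86 (change 6.82, SE 1.09), with another probe at 0.25. Each of these genes had both secondary arrays above both primary arrays. Ifi47, a GTPase gene, was at -2.41 and -1.37 against 2.72 and 3.96 (change 6.22, SE 1.05), and Gbp7 at -4.01 and -3.96 against 1.87 and 1.83 (change 6.82, SE 1.44).

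Other members did not share this direction. Irf1 was at 1.98 and 2.25 on the primary and 1.84 and 2.33 on the secondary arrays, with overlap. Irf7, Mx1, Mx2 and Oas1a had both secondary arrays below both primary arrays, with changes of -0.51 for Irf7, -0.67 for Mx1, 0.03 for Mx2 and 0.12 for Oas1a. The 7 genes named above thus sat beside members whose change was near that of the median gene.

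The interferon-stimulated response element, where factors of the Stat and Irf families bind, was searched as GAAA, any 2 bases and GAAA again. On either strand of the 250 bases before the start, it was found for 14 of the 27 interferon genes with a RefSeq sequence (51.9%), against 974 of 32817 gene starts (2.97%). Gbp2 had 1 match and Ifit1 had 2, shown in capitals because both genes went from below background to measured. The Gbp2 window is chr3:142620413-142620662 and the Ifit1 window chr19:34640639-34640888, both GRCm38.p6 and on the plus strand. Gbp7 also held 1 match, as did Stat2, whose groups overlapped.
Gbp2: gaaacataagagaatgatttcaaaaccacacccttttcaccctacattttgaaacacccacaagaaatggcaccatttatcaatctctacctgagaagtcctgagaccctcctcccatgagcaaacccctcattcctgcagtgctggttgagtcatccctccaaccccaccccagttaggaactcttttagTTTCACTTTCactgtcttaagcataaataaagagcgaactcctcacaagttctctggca
Ifit1: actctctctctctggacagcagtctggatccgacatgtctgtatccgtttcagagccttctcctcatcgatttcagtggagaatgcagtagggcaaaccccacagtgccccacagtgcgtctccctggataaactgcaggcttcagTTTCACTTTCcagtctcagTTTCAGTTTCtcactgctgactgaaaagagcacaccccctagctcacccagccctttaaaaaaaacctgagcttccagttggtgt

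Proteasome genes had the highest median change of the 39 lists in the plot of list medians. The proteasome degrades ubiquitin-tagged proteins, and 30 of its 37 subunit genes lay above the median gene, with a median of 2.37 that was 2.38 without WT primary array 2 and 2.54 without WT primary array 1. Both secondary arrays lay above both primary arrays for 21 of the 37, beside 15.3% of all genes. At an unadjusted p under 0.05, 6 were higher, beside 5.45% of all genes. Psmb2, a core particle gene, was at -2.38 and -4.33 on the primary and 3.64 and 3.30 on the secondary arrays (change 7.81, SE 1.25). Psmd12, of the lid, was at -2.40 and -2.64 against 3.01 and 3.06 (change 6.55, SE 0.98), and 2 other Psmd12 probes gave 5.62 and 7.39. Psmd5, an assembly chaperone gene, was below background on both primary arrays and at least 33.6-fold higher. Psmc1, at -3.36, and Psmd14, at -2.97, lay furthest below the median gene, but at 1.43 and 0.95 without WT primary array 2.

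Among 24 chaperone and unfolded protein response genes the median change was 1.83. At an unadjusted p under 0.05, 6 were higher and 1 lower, beside 5.45% and 6.54% of all genes. Hspa5, the main chaperone of the endoplasmic reticulum, was at -3.86 and -0.64 on the primary and 2.89 and 3.37 on the secondary arrays (change 6.37, SE 1.31). Hspe1, the mitochondrial cochaperonin gene, was below background on both primary arrays and at 2.76 and 2.57 on the secondary arrays, at least 82.1-fold higher. Canx, for the lectin chaperone calnexin, was at -0.65 and -0.72 against 2.50 and 4.17. None of the 3 overlapped. The stress sensor gene Atf6 was lower, at 0.42 and 0.78 against -1.68 and -1.59.

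Mitochondrial genes lay above the median gene in 4 lists. These were the mitochondrial ribosome (54 of 71, median 1.65), oxidative phosphorylation (51 of 70, median 1.36), fatty acid oxidation (18 of 22, median 1.67) and the TCA cycle (14 of 21, median 1.25). At an unadjusted p under 0.05, 11 of the mitochondrial ribosome genes were higher and 1 lower. Of the oxidative phosphorylation genes 7 were higher and 0 lower. Over all genes 5.45% were higher and 6.54% lower. Mrpl12 was at 0.18 and -0.93 on the primary and 4.51 and 4.98 on the secondary arrays (change 6.11, SE 1.26). Mrps17 went the other way, at 3.75 and 8.97 against -0.72 and -2.19 (change -6.83, SE 1.75), but another Mrps17 probe gave 3.35. Atp5d, of the ATP synthase, was at -0.34 and -1.25 against 3.29 and 3.31 (change 5.09, SE 1.05). Hadh, an enzyme gene of fatty acid oxidation, was at -3.29 and -4.41 against 1.12 and 1.15 (change 5.98, SE 1.1). Suclg1, of the TCA cycle, was at -0.81 and 0.56 against 3.96 and 3.52 (change 4.86, SE 1.15).

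Cytosolic ribosomal protein genes, by contrast, had no settled direction. Their median change over 77 genes was -0.57, but 1.81 without WT primary array 2, -3.50 without WT primary array 1 and 1.49 after quantile normalization. Their median level was 4.6 and 10.37 on the primary and 5.87 and 5.81 on the secondary arrays. These genes are among the most abundant transcripts of any cell, and they lay far higher on the dim array than on the other WT arrays.

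**Figure D3:**
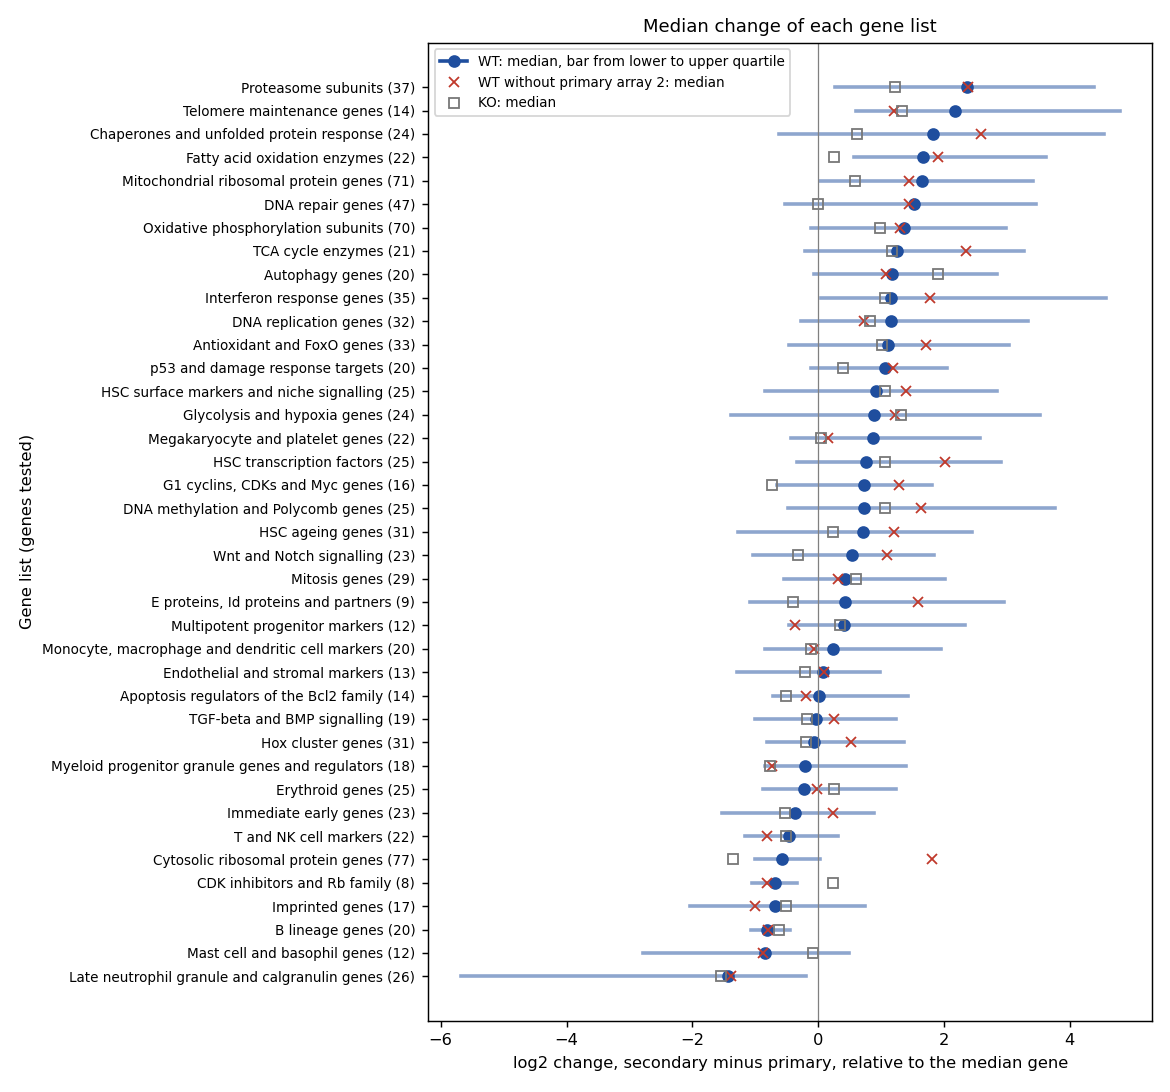
The plot shows, for 39 gene lists ordered by their WT median, the median log2 change between secondary and primary recipients relative to the median gene (filled circle) with the quartiles (bar), the WT median without primary array 2 (cross) and the KO median (open square). Proteasome genes lie at the top, at 2.37, and late neutrophil genes at the bottom, at -1.44; the cross of the cytosolic ribosomal genes is on the other side of 0 from their circle.

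Changes varied with the level of a gene. Genes were sorted into 5 equal groups by their mean level on the 4 KO arrays, which do not enter the WT changes themselves. The median change was 0.31 in the lowest group and -0.49 in the highest, where 36.3% of genes lay above the median gene. The highest group was at -0.19 without WT primary array 2 and at -0.99 without WT primary array 1.

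**Figure D4:**
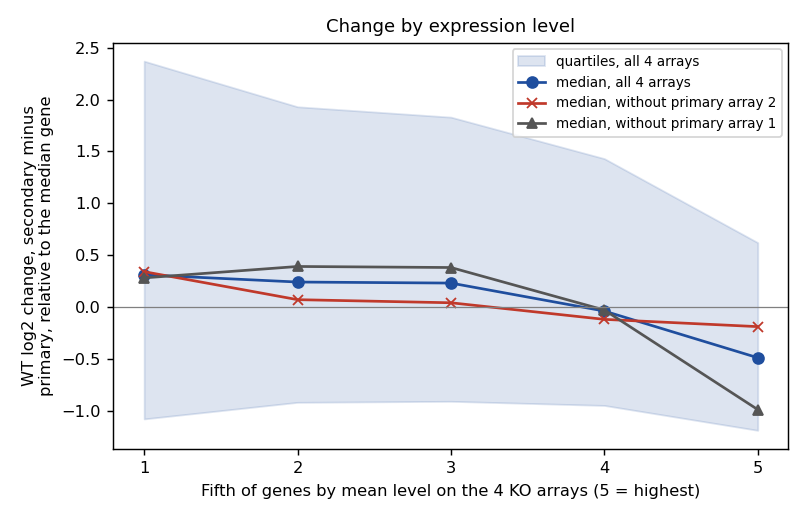
The plot shows the median WT log2 change relative to the median gene (vertical axis) in 5 equal groups of genes by their mean level on the KO arrays (horizontal axis, 5 the highest), with all 4 WT arrays (circles, quartiles shaded), without primary array 2 (crosses) and without primary array 1 (triangles). The 3 lines start at 0.31, 0.34 and 0.28 in the lowest group and end at -0.49, -0.19 and -0.99 in the highest.

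Genes of DNA synthesis lay above the median gene in most cases. Of 32 DNA replication genes, 23 lay above the median gene, with a median of 1.15. At an unadjusted p under 0.05, 5 were higher and 1 lower, beside 5.45% and 6.54% of all genes. Uhrf1, which recruits the maintenance methyltransferase at replication forks, was at -0.17 and -0.57 on the primary and 3.02 and 2.83 on the secondary arrays (change 4.29, SE 0.96). Mcm5 and Mcm7, of the replicative helicase, had changes of 4.21 (SE 1.13) and 5 (SE 1.47), without overlap. Mki67, the Ki-67 proliferation marker, was at -1.47 and -4.33 against 1.27 and 2.03 (change 5.54, SE 1.33), but 29 mitosis genes had a median of only 0.42.

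Ccnd1, the cyclin D1 gene, was at -1.37 and 0.53 on the primary and 4.01 and 4.10 on the secondary arrays (change 5.47, SE 1.17). Its partner kinase gene Cdk4 was at -1.05 and -0.03 against 2.20 and 3.24 (change 4.26, SE 0.98). Neither gene overlapped, and without WT primary array 2 the changes were 6.16 and 4.51. Ccnd2 overlapped, at 2.29 and 10.39 against 4.59 and 4.28. Among inhibitors of cyclin-dependent kinases, Cdkn2b, for p15, was lower at -2.29 (SE 1.18), while Cdkn1a, for p21, was at 1.29 and -0.14 against -0.92 and -1.31. Cdkn1c, for p57, a brake on HSC cycling, was at -0.46 and 4.26 against 0.46 and 0.45, and Cdkn1b, for p27, at 4.35 and 2.34 against 2.24 and 2.55, with overlap in both.

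DNA repair and telomere genes included several large single differences. Rad52, of homologous recombination, was at -3.79 and -4.29 on the primary and 1.87 and 2.67 on the secondary arrays (change 7.30, SE 1.13). Another Rad52 probe gave 1.96. Xrcc3, of the same pathway, was at -4.57 and -4.40 against 0.67 and -0.29 (change 5.67, SE 0.98). Prkdc, the catalytic subunit of DNA-dependent protein kinase, was at -0.19 and -4.33 on the primary arrays, above background on the first of them, and below background on both secondary arrays. Of 47 repair genes 31 lay above the median gene (median 1.52). At an unadjusted p under 0.05, 8 were higher and 3 lower, beside 5.45% and 6.54% of all genes. Of 14 telomere genes 11 lay above the median gene (median 2.17), with 4 higher and 0 lower at that p. These 4 were the shelterin genes Pot1a and Tinf2 and the H/ACA genes Nop10 and Nhp2. Other probes gave -2.88 for Pot1a and -0.46 for Tinf2, so these depend on the probe. Tert itself had a change of 0.51.

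The medians of the B lineage, T and NK cell, mast cell and erythroid lists lay below the median gene. Of 20 B lineage genes, 18 had both secondary arrays below both primary arrays, beside 40.1% of all genes, with a median of -0.82. Rag2, of antigen receptor recombination, was at -0.67 and -3.64 on the primary arrays, above background on the first of them, and below background on both secondary arrays. Dntt, for terminal transferase, was at 1.93 and 3.13 against 0.22 and 0.77, and Blk, for a B cell kinase, at 0.96 and 0.30 against -2.13 and -1.45. Cd79b had both secondary arrays above, and Cd72 overlapped. Among 22 T and NK cell genes the median was -0.46, and Tcf7, the gene of the T lineage factor TCF-1, was at 2.77 and 2 against -1.69 and -2.85 (change -3.66, SE 0.98).

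Of 12 mast cell and basophil genes, 2 were lower at an unadjusted p under 0.05, beside 6.54% of all genes. Cma1, for mast cell chymase, was at 1.56 and 2.09 on the primary and -3.05 and -2.80 on the secondary arrays (change -3.75, SE 0.97), but another Cma1 probe gave 1.83. Hdc, for the enzyme that makes histamine, was at -1.93 and -2.40 against -6.16 and -6.43. The erythroid gene Slc4a1, for the band 3 anion exchanger, had a change of -2.46 (SE 0.99), in a list of 25 whose median was -0.23, and -0.02 without WT primary array 2. Of 22 megakaryocyte genes, 3 were higher and 1 lower at an unadjusted p under 0.05, beside 5.45% and 6.54% of all genes, with a median of 0.87 that was 0.16 without WT primary array 2. Among them Ppbp, a platelet chemokine gene, was below background on both primary arrays and at least 4.43-fold higher. No endothelial or stromal marker of 13 reached an unadjusted p under 0.05 by limma.

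Several imprinted genes are known to be enriched in quiescent HSC. Of 17, 12 lay below the median gene, with a median of -0.69. H19, the maternally expressed non-coding RNA, was at 4.11 and 3.38 on the primary and 0.52 and -0.5 on the secondary arrays (change -2.74, SE 1.13). Mest and Dlk1 had changes of -2.56 (SE 1.06) and -1.98 (SE 1.05). In all 3, which were named for their low p, both secondary arrays lay below both primary arrays. Over the list this held for 8 of 17 genes, beside 40.1% of all genes. Of the 5 genes above the median gene, Gnas was the one with an unadjusted p under 0.05, at -0.29 and -2.27 against 2.98 and 3.14 (change 5.33, SE 1.15), with 7 other probes between -3.53 and 4.52.

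Among E proteins, Id proteins and their partners, 9 genes had a median change of 0.42, which was 1.58 without WT primary array 2 and -0.9 without WT primary array 1. Tcf4, a paralogue of the E47 gene Tcf3, was at -4.07 and -4.40 on the primary and 1.47 and 2.84 on the secondary arrays (change 7.38, SE 1.59). It was below background on 1 primary array, and 2 other Tcf4 probes gave -2.31 and 3.70. Tcf3 itself was at -1.62 and 5.13 against 1.07 and 1.28, with overlap. Of 31 Hox genes, 1 was higher and 1 lower at an unadjusted p under 0.05, a smaller share than over all genes (5.45% and 6.54%), and the median was -0.07.

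Serbp1 had the lowest p of all named genes. It encodes an mRNA-binding protein of the ribosome, and was at -4.28 and -3.57 on the primary and 4.23 and 4.67 on the secondary arrays (change 9.37, SE 1.11, unadjusted p 9.45e-05). Its raw intensities were 17 and 3 on the primary and 15916 and 18587 on the secondary arrays, so that the probe was nearly dark in one group and among the bright ones in the other. The probe maps to chr6:67207469-67211237 of mm8 on the plus strand, a span of 3769 bases for 60 bases of probe, so it bridges an intron. Of 2 other Serbp1 probes, one gave 6.87 and the other -1.85.
Serbp1: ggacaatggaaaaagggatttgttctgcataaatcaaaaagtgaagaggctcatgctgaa

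The 15 named genes of lowest p that were higher also held 2 receptor genes. F2r, for the thrombin receptor PAR1, was below background on both primary arrays and at 3.15 and 2.56 on the secondary arrays, at least 93.5-fold higher (change 9.72, SE 1.25). Adgrl4, an endothelial adhesion receptor gene, was below background on both primary arrays and at 2.67 and 2.05, at least 66.4-fold higher. Both have a single probe on the array. The others were Elp2 of the Elongator complex (9.17), Sri for the calcium-binding sorcin (8.41), Sub1 for a transcription coactivator (8.36), Usp40 for a deubiquitinase (8.33), Rab10 for a vesicle GTPase (7.54), Faim for an apoptosis inhibitor (7.45), Mcee of propionate breakdown (7.37), Ywhab for a 14-3-3 protein (7.07), App for the amyloid precursor protein (7.01) and Huwe1 for a ubiquitin ligase (6.91), with H2-Aa and Gbp2. Rab10 and Usp40 were below background on both primary arrays, so their changes rest on values not well above background there. Serbp1, Elp2, Sri, Sub1, Faim, Mcee, Ywhab, App, Huwe1 and H2-Aa were below background on WT primary array 2. Their changes rest in part on such values. Several of these genes depend on the probe: other probes gave 0.23 for Sub1, -1.54 to 1.89 for App, -4.15 to 8.32 for Rab10, -0.96 to 5.32 for Huwe1 and 3 for Usp40. The other Ywhab probe gave 7.27.

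Apart from the 4 neutrophil genes and Cma1, the 15 named genes of lowest p that were lower had changes of -3.82 to -5.78. They were Abcg8 for a sterol transporter, Aoc2 for an amine oxidase, Krtap9-3 for a hair keratin-associated protein, Ugt2b38 for a glucuronosyltransferase, Trappc2 of vesicle tethering, Hormad1 of meiosis, Fam166b, Tgfa for an epidermal growth factor receptor ligand, Gabrb1 for a GABA receptor chain and Pdzd9. Aoc2 was at 1.92 and 2.15 on the primary and -4.78 and -4.41 on the secondary arrays, and Tgfa at 1.82 and 1.99 against -3.18 and -3.26. Several of them belong to tissues other than blood. Krtap9-3 was below background on both secondary arrays, at least 37.5-fold lower. A second Tgfa probe gave -2.99. Second probes of Abcg8 and Hormad1 gave only -0.12 and -0.62, beside -5.78 and -4.74 for the probes used, so these 2 depend on the probe.

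The same contrast between recipients can be read in KO HSC. The KO arrays do not enter the WT changes, but they share the estimate of the spread and the filter on background with them. No gene passed there either (limma, lowest adjusted p 0.691); 750 genes (3.27%) were higher and 635 (2.77%) lower at an unadjusted p under 0.05. In KO both secondary arrays lay above both primary arrays for 12.7% of genes and below for 28.4%. Over all 22943 genes the WT and KO changes correlated at 0.29 (Pearson r, across genes, which are not independent replicates), and 61.2% had the same sign. Of the 1250 genes higher in WT at an unadjusted p under 0.05, 1058 (84.6%) were above the median gene in KO too, with a median KO change of 2.19. Of the 1501 lower ones, 963 (64.2%) were below it in KO, with a median of -0.37. Both KO groups lie on slides of their own, so slide and recipient cannot be told apart in KO, while the WT arrays share one slide.

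All 15 named higher genes also had both KO secondary arrays above both KO primary arrays, beside 12.7% of all genes, with KO changes from 1.81 for Sub1 to 6.81 for Gbp2. Of the 15 named lower genes, 10 (66.7%) were lower in KO as well, beside 61.2% of all genes with the same sign in both genotypes. The same 10 also had both KO secondary arrays below both KO primary arrays, beside 28.4% of all genes. S100a8 was at 4.96 and 11.64 on the KO primary and -3.04 and -7.71 on the KO secondary arrays, a KO change of -13.15 beside -15.25 in WT. Retnlg, S100a9 and Lcn2 had KO changes of -9.92, -10.45 and -7.29, and Lcn2 was at -3.3 on 1 KO primary array. The median of the 26 neutrophil genes was -1.55 in KO. KO primary array 2 was as dim as WT primary array 2, with 35.4% of spots above background, and carried the higher S100a8 level of its pair.

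Hlf and Meis1 had both secondary arrays above both primary arrays in each genotype. Hlf was at -0.80 and -2.09 on the KO primary and 2.68 and 4.02 on the KO secondary arrays (KO change 5.32), and Meis1 at 0.41 and -0.38 against 3.79 and 5.23 (KO change 5.02). Psmb2 and Hspa5 had KO changes of 6.25 and 8.28, and 29 of 37 proteasome genes lay above the median gene there (median 1.22). Angpt1, Fgd5 and Ifi47, in contrast, overlapped between the KO groups, with KO changes of 0.37, -0.46 and 0.62. For these 3 genes the difference between genotypes was 4.72 (SE 1.65), 6.07 (SE 2.01) and 5.40 (SE 1.49), none of which passed (adjusted p 1 by limma).

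**Figure D5:**
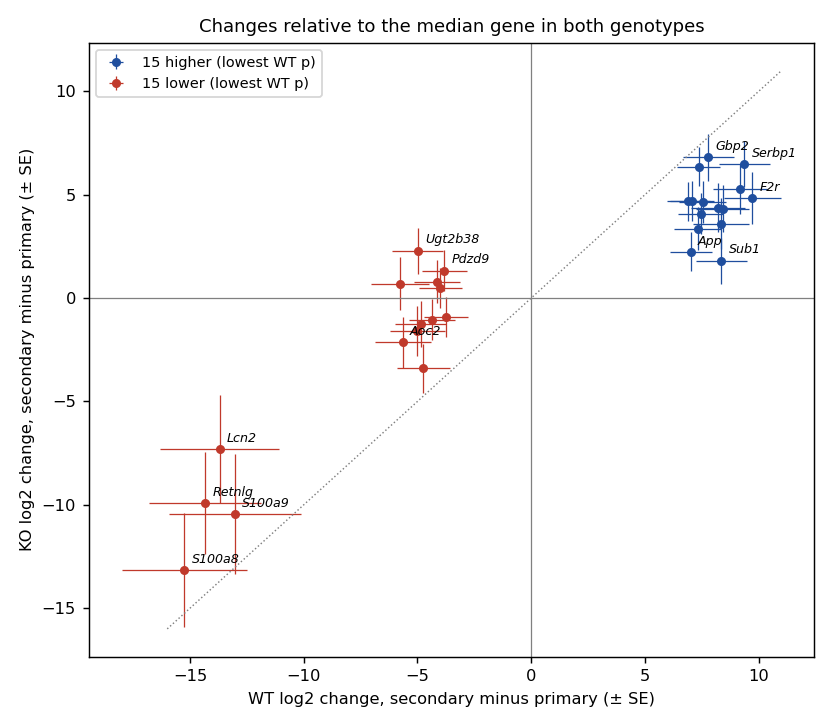
The plot sets the WT change (horizontal axis) against the KO change (vertical axis), both log2, secondary minus primary, relative to the median gene and with SE bars, for the 15 higher and the 15 lower named genes; the dotted line marks equal changes. All 15 higher genes lie above 0 in both genotypes, S100a8 lies nearest the line of the 4 neutrophil genes at the lower left, and Ugt2b38 and Pdzd9 lie on opposite sides of 0 in the 2 genotypes.

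The difference between genotypes passed for no gene (lowest adjusted p 1 by limma), and 858 genes (3.74%) had an unadjusted p under 0.05. The genes of lowest p with a more positive WT change were Nars2 (difference 12.31, SE 2.41), Letm2 (12.17, SE 2.5), Ankrd49 (7.58, SE 1.56), Wdr1 (11.04, SE 2.39) and Map1lc3b (9.46, SE 2.04). Map1lc3b encodes the autophagosome marker LC3B, and was at 0.38 and -1.03 on the WT primary and 3.59 and 2.95 on the WT secondary arrays, but at 5.50 and 9.39 against 2.48 and 1.22 in KO. Those with a more negative WT change were Mamdc2 (-7.68, SE 1.36), Arhgef39 (-10.06, SE 1.78), Bcdin3d (-10.8, SE 2.13), Slc25a16 (-8.97, SE 1.87) and Rhox2a (-7.38, SE 1.55). Arhgef39, for a guanine nucleotide exchange factor, was at 0.30 and -2.15 against -5.16 and -5.75 in WT and at -3.22 and -2.59 against 1.77 and 4.01 in KO, while another Arhgef39 probe gave a WT change of 2.16.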

How the data were processed

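RNA of 8 one-colour Agilent arrays (design 014868) was measured, and 22943 genes or unnamed probes were tested. The deposited scanner intensity values were made with Feature Extraction (version 10.5.1.1, Agilent), which had already subtracted the background, per the file headers. The deposited series matrix holds a ratio of each spot to its array's median, within 0.9999475 and 1.000054 times the scanner values so scaled, and served as an alternative.

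Of 43379 spots, none saturated, outliers were left out and repeats averaged. Levels were log2 of processed signal minus each array's 75th percentile. Genes were named through RefSeq accessions or symbols (GRCm38.p6, names only) and represented by their probe of highest mean. A gene entered the test where some group of the 4, KO included, had it above background on both of its arrays; counts over such genes are descriptions.

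The test was limma's (version 3.58.1, R 4.3.3), fitted once over the 4 groups (4 residual degrees of freedom), and p-values were adjusted by Benjamini-Hochberg with 0.05 as the threshold. This procedure was tested on simulated data. For "at least N-fold", the mean of the bright group was divided by a bound for the dim one: on each array, the higher of the probe's value and the lowest signal above background. These folds keep the 75th percentile scale. Named were the 15 genes of lowest p per direction without overlap, up to 4 members per list and direction at an unadjusted p under 0.05, a panel of marker genes, and the 5 genes per direction whose change differed most between genotypes. Other genes printed were chosen after their values were seen. The members and lists were chosen with earlier results of these data known; 1072 of 1084 list entries, in 40 lists, were on the array. Replicate numbers did not pair the arrays (correlation of replicate differences -0.0251 between WT groups). Some results are not reported here.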

Additional observations from a re-analysis of the deposited data

Results flagged for a closer look

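Ugt2b38 and Pdzd9 stand out because both WT secondary arrays lay below both WT primary arrays while both KO secondary arrays lay above both KO primary arrays. Neither difference passed adjustment (limma, adjusted p 1). Ugt2b38 was at 1.24 and 2.51 on the WT primary and -3.06 and -5.16 on the WT secondary arrays, but at -3.79 and -3.46 against -1.49 and -2.23 in KO. The difference between the WT and KO changes was -7.48 (SE 1.58). Pdzd9 was at 0.12 and -1.12 against -5.14 and -5.49 in WT, and at -2.6 and -3.27 against -2.46 and -1.79 in KO, a difference of -5.35 (SE 1.39). Each has 1 probe on the array.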

How the results depend on the processing

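No gene passed under any of the 25 alternatives run, 2 of which were chosen after seeing the data. The lowest adjusted p by limma lay between 0.0794, without WT primary array 1, and 0.692, without WT secondary array 1. With the replicate number as a block it was 0.383, with 1247 genes higher and 1514 lower at an unadjusted p under 0.05. The groups already encode the slide, so limma set the correlation of slide as a random block to 0, and that fit equals the one without it. All 754 alternative values of the named genes tested this way kept their direction, but they did not cover every named gene. Without WT primary array 2, Kit went from -2.76 to 1.30, Ly6a from -1.50 to 1.32 and Ccnd2 from -0.91 to 2.88. As no gene passed in any setting, none changed its side of the threshold. Of the list medians, 923 stayed within their spread and 77 moved, and the cause was not tested.

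The counts at an unadjusted p under 0.05 moved with the processing. They were 666 higher and 5055 lower with normexp background, 2066 and 379 with the percentile taken over detected probes, and 251 and 1607 over genes above background on all 4 WT arrays. With signals floored, 759 were higher. Without WT primary array 1, 3212 were lower, and without WT secondary array 1 or 2, 403 or 478 were lower and 787 or 733 higher. Leaving out 1 array at a time, genes detected in secondary recipients only numbered 1412 to 7735 and those in primary recipients only 43 to 263, with 98 and 62 without WT secondary array 1 and 2. Signal over background limits all low genes on WT primary array 2.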
